A study of Mus musculus with 8 samples.

Results

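The genes examined here encode the proteins that assemble and export very low density lipoprotein (VLDL), the triglyceride carrier that hepatocytes release into blood. The set was defined by name and holds 9 genes, Apob, Mttp, P4hb, Tm6sf2, Cideb, Surf4, Sar1a, Sar1b and Creb3l3. All 9 were found among the 21983 gene symbols of the count table, and 8 of them passed the filter on low counts. They were measured by RNA-seq in AML-12, an immortalised mouse hepatocyte line, in 8 libraries. The 4 control libraries are labelled pLKO.1 (an empty lentiviral plasmid backbone) with genotype WT. The other 4 are labelled as overexpressing GM47544, and their titles name no vector. All cultures were grown in DMEM with 10% serum, and the labels do not state whether libraries with the same label are separate cultures or transductions. The p-values below therefore reflect only how far these libraries vary, a variation that could be technical. The RNA of Gm47544 itself was not analysed here, so the labels could not be checked against it.

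A VLDL particle is built around 1 copy of apolipoprotein B, which is translated into the endoplasmic reticulum (ER) and must receive lipid while it folds, or it is degraded. The microsomal triglyceride transfer protein, encoded by Mttp, works as a heterodimer with protein disulphide isomerase, encoded by P4hb, and loads the first lipid. TM6SF2 and CIDEB act in later lipid loading in the ER. The finished particle is too large for an ordinary transport vesicle, and leaves the ER through the cargo receptor SURF4 and the GTPases SAR1A and SAR1B, which start the assembly of the COPII coat. CREB3L3 is an ER-anchored transcription factor of hepatocytes that is released by proteolysis and activates genes of triglyceride metabolism.

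Library totals ranged from 11016907 to 18965662 counts and did not differ detectably between the groups (exact permutation test, two-sided, p = 0.343, where the smallest p of 4 against 4 is 0.0286). The groups differed across most of the transcriptome: 7417 of 11520 tested genes, or 64.4%, passed a Benjamini-Hochberg adjusted p of 0.05 (edgeR, quasi-likelihood test). Of all tested genes, 32.3% were higher and 32.1% lower in overexpression libraries, and 20.5% were called with a change of at least 2-fold. In 56% of tested genes the groups did not overlap. Control library 3 stood apart from the other controls: on a first principal component holding 83.5% of the variance it lay at -17.7, where the other controls reached from -56.6 to -45.7 and the overexpression libraries from 39.4 to 46.0. Markers of the labelled cell type were mixed, since Hnf4a was above 300 CPM (counts per gene scaled to a common library size) in every library while Asgr1, Ahsg and Apoa2 had 0 to 3 counts per group. Of 9 tested hepatocyte markers 3 were higher and 3 lower, and the summed level of the 13 listed ran from 1520 to 2051 CPM in controls and from 887 to 914 CPM in the overexpression libraries. That fall was set by Ttr (transthyretin), at 1321 ± 239 and 279 ± 24.2 CPM (SD, n = 4 each). Without Ttr the other 12 summed to 459 to 505 and 586 to 634 CPM. Alb (albumin) set that rise, at 22.3 ± 3.85 and 267 ± 28.2 CPM (SD, n = 4 each). Fgb and Fga were also called higher. Trf and Serpina1a were called lower, the latter at 101 ± 19.4 and 31.2 ± 3.44 CPM (SD, n = 4 each). Summed markers of cholangiocytes and progenitors ran from 2897 to 4287 and from 4614 to 5234 CPM, with 1 of 7 higher and 2 lower. That rise was set by Spp1 (osteopontin), at 943 ± 209 and 2731 ± 114 CPM (SD, n = 4 each), and without it the groups overlapped, at 1931 to 3487 and 2016 to 2411 CPM. The stellate cell and fibroblast list (2 of 8 higher, Lrat, Col1a2 and Lum at 0) summed to 3.56 to 5.47 and 9.86 to 17.5 CPM. Des made up most of these sums, at 3.95 ± 0.579 and 11.3 ± 3.31 CPM (SD, n = 4 each). The endothelial list (1 of 5 higher) summed to 0.125 to 0.536 and 1.29 to 2.18 CPM. Most of that rise was in Cdh5, at 0.117 ± 0.148 and 1.29 ± 0.0529 CPM (SD, n = 4 each). The macrophage list (1 of 6 lower, Adgre1 and Clec4f at 0) summed to 29.8 to 36.3 and 12.7 to 16.3 CPM. Csf1r held most of that fall, at 27.1 ± 2.46 and 10.2 ± 1.70 CPM (SD, n = 4 each), and Cd68 and Lyz2 were not called. The enterocyte list (1 of 7 higher, Vil1) summed to 124 to 149 CPM in controls and 164 to 175 CPM in the overexpression libraries. The part of these differences in the results below was not tested.

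Of the 9 genes, 4 were higher in overexpression libraries (Apob, Mttp, Tm6sf2 and Cideb), 1 was lower (Surf4), 3 did not pass the test (P4hb, Sar1a and Sar1b) and 1 was too low to test (Creb3l3). The 5 called of 8 tested genes stand beside the 64.4% called in all tested genes, so the share of changed genes was near the background. The groups did not overlap in 4 of the 8, against 56% of all tested genes. The genes that rose encode the apolipoprotein and 3 proteins of lipid loading, and the gene that fell encodes an export receptor. P4hb, also of lipid loading, was not called (-0.25), and neither were the export genes Sar1a and Sar1b. Apob did not keep its call after correction for exonic length (0.13), nor Tm6sf2 when certain single libraries were left out. Whether the calls follow these functions was not tested. In bulk RNA, fewer cells of a type and less RNA per cell cannot be told apart.

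**Figure D1:**
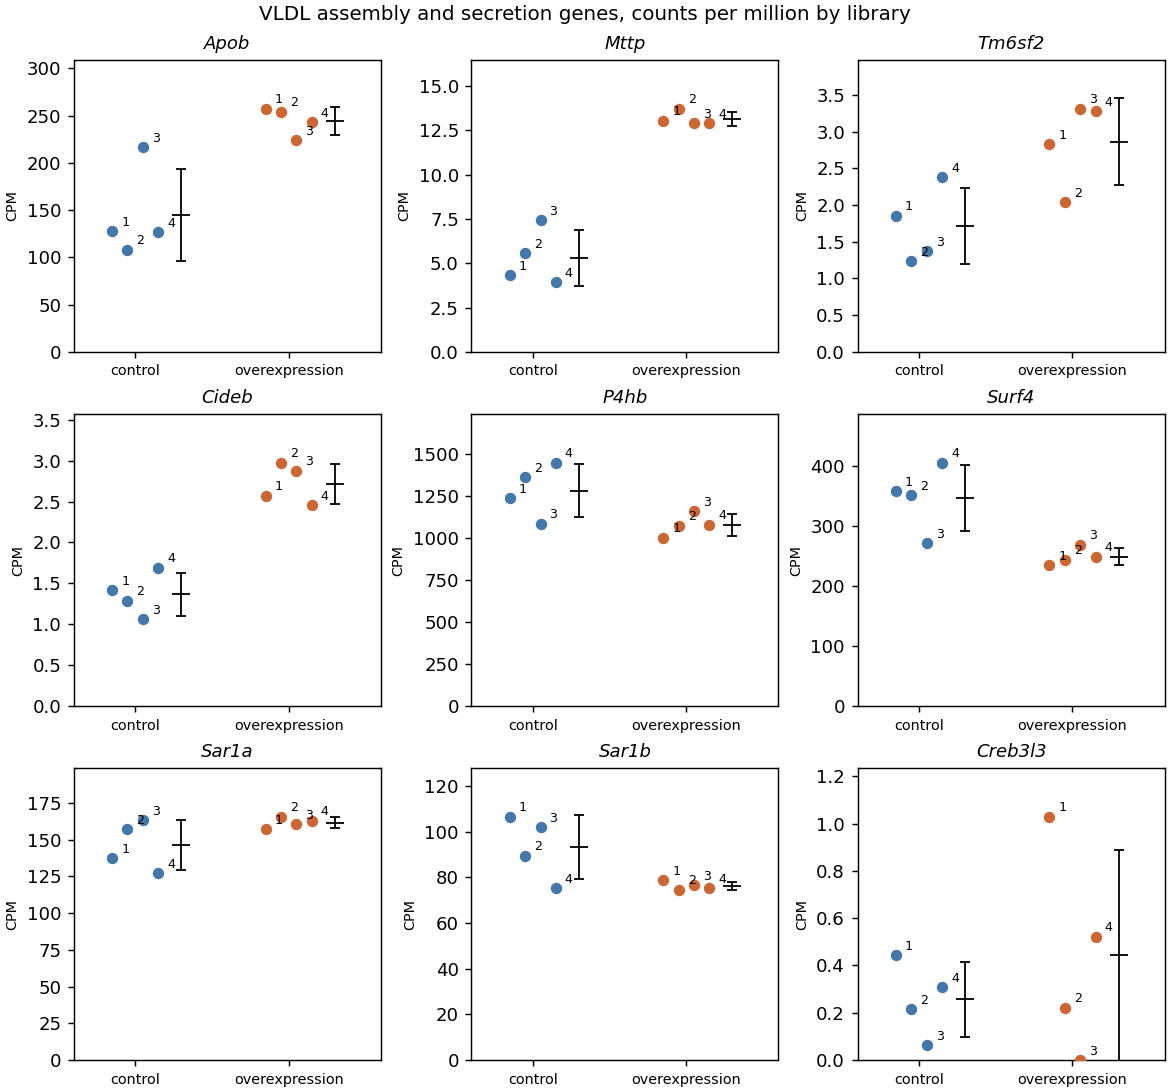
CPM of each gene in each library, numbered by replicate, with the mean and SD of each group as a black bar beside the points; each panel has its own axis from 0. Apob, Mttp, Cideb and Surf4 show no overlap between groups, and control library 3 is the control nearest the overexpression mean for Apob, Mttp, P4hb, Surf4 and Sar1a.

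Apob encodes the structural apolipoprotein of VLDL and was the longest of the 9 transcripts, with 13934 exonic bases in 29 exons (GRCm38 chr12:7977648-8016835, plus strand). Its promoter is shown with the letters that matched a searched motif in capitals.
Apob promoter, chr12:7977427-7977726, plus strand: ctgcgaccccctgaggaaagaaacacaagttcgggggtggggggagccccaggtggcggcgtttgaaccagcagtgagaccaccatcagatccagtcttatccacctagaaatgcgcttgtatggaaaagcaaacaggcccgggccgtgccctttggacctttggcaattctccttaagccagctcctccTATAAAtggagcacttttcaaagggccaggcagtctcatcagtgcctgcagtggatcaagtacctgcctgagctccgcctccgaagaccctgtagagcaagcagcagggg
The sequence is from RefSeq on GRCm38.p6, 5′ to 3′, from 250 bases before to 50 bases from the start site on. The capitals mark TATAAA, which begins at position -60 from the start site and which 13.6% of 32851 promoter windows hold.

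Apob stood at 128, 108, 216 and 127 CPM in control libraries 1 to 4 and at 257, 254, 224 and 243 CPM in overexpression libraries 1 to 4. Every overexpression library was above every control, and control library 3 was close to the lowest of them. The group means were 145 ± 48.7 and 244 ± 15.1 CPM (SD, n = 4 each). The log2 fold change was 0.76 (SE 0.18, 95% interval 0.36 to 1.15, edgeR quasi-likelihood adjusted p = 0.00296), and without control library 3 it was 0.99 (adjusted p = 9.1e-09). Long genes were higher in overexpression libraries in general (Spearman rho 0.41 of log2 fold change with log2 exonic length, across 11491 genes, which are not independent and share the 8 libraries). With that trend removed the Apob difference was 0.13 (edgeR adjusted p = 0.334), and the corrected levels overlapped at 146 to 214 CPM in controls and 180 to 204 CPM with overexpression. With the trend on GC content removed it was 0.41 (edgeR adjusted p = 0.00572).

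**Figure D2:**
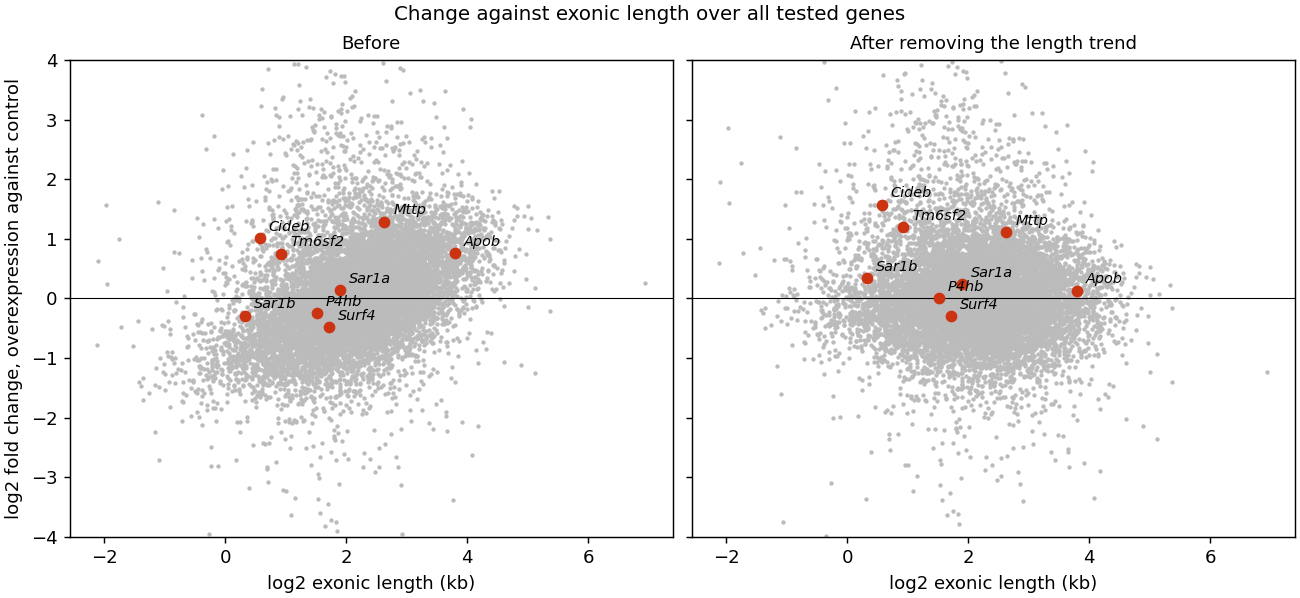
Log2 fold change of each tested gene against exonic length in kilobases on a log2 scale, before (left) and after (right) the length trend was removed; grey points are genes, red points the 8 tested VLDL genes, and the vertical axis stops at 4 in either direction, so that a few genes lie outside. Apob, at the long end, moves from 0.76 to 0.13, while Mttp, Cideb and Tm6sf2 remain above 0.

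Mttp encodes the large subunit of the lipid transfer protein, the target of the drug lomitapide. It lies at chr3:138089854-138144968 on the minus strand and has 18 exons in its longest transcript. The promoter window searched for it lies inside the annotated gene, so a start site at the gene's upstream end was not covered. This window has 1 match, the letters CGTCA in capitals, which read TGACG (the core of a cyclic AMP response element) on the opposite strand.
Mttp promoter, chr3:138143369-138143668, minus strand: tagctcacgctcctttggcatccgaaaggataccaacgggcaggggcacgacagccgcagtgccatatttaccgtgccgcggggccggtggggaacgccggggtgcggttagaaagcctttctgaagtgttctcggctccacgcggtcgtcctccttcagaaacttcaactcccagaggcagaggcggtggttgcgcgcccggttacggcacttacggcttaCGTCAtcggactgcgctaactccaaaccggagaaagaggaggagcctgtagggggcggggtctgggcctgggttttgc
The match begins at position -28, and 20.8% of all windows hold TGACG.

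Mttp stood at 4.33, 5.58, 7.44 and 3.92 CPM in controls and at 13.03, 13.7, 12.9 and 12.9 CPM in the overexpression libraries. The overexpression libraries lay close together, and all were above the highest control, which was again library 3. Means were 5.32 ± 1.58 and 13.1 ± 0.394 CPM (SD, n = 4 each), from 323 and 722 counts. The log2 fold change was 1.29 (SE 0.19, 95% interval 0.89 to 1.69, edgeR quasi-likelihood adjusted p = 7.73e-05). It was called higher in all 19 alternatives, with log2 fold changes between 1.06 and 1.46, and at 1.11 with the length trend removed. Exons of Trmt10a overlap those of Mttp on the other strand by 457 bases, and the strand setting of the counting is not known from the labels. Trmt10a stood at 17.9 ± 3.83 CPM in controls and 17.4 ± 1.37 CPM in the overexpression libraries (SD, n = 4 each) and was not called (log2 difference -0.05, edgeR adjusted p = 0.795).

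Tm6sf2 encodes an ER and ER-Golgi membrane protein that promotes the lipidation of VLDL, and whose human coding variant is linked to fatty liver. It lies at chr8:70072924-70080066 on the plus strand. It stood at 1.86, 1.23, 1.37 and 2.38 CPM in controls and at 2.83, 2.04, 3.31 and 3.28 CPM in the overexpression libraries. The groups overlapped, because control library 4 exceeded overexpression library 2. Means were 1.71 ± 0.520 and 2.86 ± 0.593 CPM (SD, n = 4 each), from 97 and 152 counts, and the log2 fold change was 0.75 (SE 0.27, 95% interval 0.18 to 1.33, edgeR quasi-likelihood adjusted p = 0.0247). The call was lost without control library 2 (0.60, edgeR adjusted p = 0.0902), without overexpression library 3 (0.67, edgeR adjusted p = 0.0665) and without overexpression library 4 (0.67, edgeR adjusted p = 0.0730). With the length trend removed the difference was 1.203.

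Cideb encodes a lipid droplet and ER protein that supports the maturation of VLDL. It lies at chr14:55754050-55758458 on the minus strand. It stood at 1.42, 1.29, 1.06 and 1.69 CPM in controls and at 2.57, 2.97, 2.88 and 2.46 CPM in the overexpression libraries, with no overlap. Means were 1.36 ± 0.262 and 2.72 ± 0.245 CPM (SD, n = 4 each), from 79 and 150 counts. The log2 fold change was 1.01 (SE 0.23, 95% interval 0.524 to 1.498, edgeR quasi-likelihood adjusted p = 0.00171) and was called in all 19 alternatives (0.88 to 1.57, the highest with the length trend removed). Mttp and Cideb were the 2 of 8 tested genes called with at least a 2-fold change, near the 20.5% of all tested genes. Cideb was just past that size, and under it in some alternatives, such as without control library 3 (0.88). The value is uncertain in 1 respect: 1136 of the 1488 exonic bases of Cideb are also exonic in Nop9 on the opposite strand. Nop9, a ribosome biogenesis gene, moved the other way, from 65.7 ± 12.5 to 35.6 ± 2.66 CPM (SD, n = 4 each; log2 fold change -0.88, edgeR adjusted p = 1.85e-04).

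P4hb encodes the isomerase that keeps the transfer protein soluble and that also serves as a subunit of collagen prolyl 4-hydroxylase. It lies at chr11:120560298-120573253 on the minus strand. It stood at 1237, 1361, 1086 and 1448 CPM in controls and at 1003, 1073, 1160 and 1079 CPM in the overexpression libraries. Overexpression library 3 exceeded control library 3, so the groups overlapped, with means of 1283 ± 158 and 1079 ± 64.1 CPM (SD, n = 4 each). The log2 difference was -0.25 (SE 0.11, 95% interval -0.50 to -0.0024) and missed the threshold in edgeR's quasi-likelihood test (adjusted p = 0.0715). Without control library 3 it was called lower at -0.35 (edgeR adjusted p = 9.48e-04), and it was near 0 with the trend on length (0.0051) or on GC content (0.0089) removed.

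The balance between the 2 subunits of the transfer complex was read within each library. There the level of Mttp per kilobase of exon for every 100 of P4hb was 0.162, 0.189, 0.316 and 0.125 in controls and 0.599, 0.589, 0.513 and 0.550 in overexpression libraries. This ratio, which does not depend on how libraries are scaled, had means of 0.198 ± 0.0830 and 0.563 ± 0.0394 (SD, n = 4 each) and no overlap. The ratio of Mttp to Apob per kilobase was 0.0762, 0.116, 0.0771 and 0.0694 in controls and 0.114, 0.121, 0.130 and 0.119 in overexpression libraries. Here control library 2 exceeded overexpression library 1, and the means were 0.0847 ± 0.0212 and 0.121 ± 0.00654 (SD, n = 4 each). With the length trend removed neither ratio overlapped between groups, with means of 0.224 ± 0.0621 and 0.482 ± 0.0296 for Mttp per 100 of P4hb and of 0.0719 ± 0.0162 and 0.142 ± 0.00691 for Mttp to Apob (SD, n = 4 each). No test was run on the ratios.

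Surf4 encodes the ER cargo receptor that binds apolipoprotein B particles and hands them to COPII. It lies at chr2:26920040-26933928 on the minus strand. It stood at 358, 352, 272 and 406 CPM in controls and at 235, 244, 269 and 249 CPM in the overexpression libraries. The groups did not overlap, but control library 3 only just exceeded overexpression library 3. Means were 347 ± 55.5 and 249 ± 14.3 CPM (SD, n = 4 each), with a log2 fold change of -0.48 (SE 0.13, 95% interval -0.75 to -0.20, edgeR quasi-likelihood adjusted p = 0.00506). Without control library 3 it was -0.61 (edgeR adjusted p = 1.93e-06). It was smaller with a trend removed, at -0.29 for length (edgeR adjusted p = 0.0289) and -0.18 for GC content (edgeR adjusted p = 0.028). With the length trend removed the groups overlapped, at 270 to 370 CPM in controls and 251 to 284 CPM with overexpression. Surf4 belongs to the surfeit cluster of closely spaced genes, and 4 of the 5 listed neighbours were also lower, beside 32.1% of all tested genes. Their median log2 fold change was -0.59, beside 0.000406 over all tested genes. With the length trend removed 3 of the 5 were lower, with a median of -0.32. Surf1, a cytochrome oxidase assembly gene, changed by -0.86, Med22, a Mediator subunit, by -0.59, and Rpl7a, a ribosomal protein gene, by -0.62. Rpl7a lost its call with the length trend removed (-0.12, edgeR adjusted p = 0.405). Surf2, whose exons share 144 bases with Surf4 on the other strand, did not pass (-0.26, edgeR adjusted p = 0.0869).

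Sar1a (chr10:61680299-61693297, plus strand) and Sar1b (chr11:51763687-51791925, plus strand) encode the paralogous GTPases that recruit COPII, and human SAR1B mutations cause chylomicron retention disease. The coding sequences have 594 bases each, of which 78.8% are identical with a longest identical run of 20 bases, and the exons of the genes share no run of 50 bases. The second coding exon, coding bases 59 to 178, is printed to show how the copies can be told apart by sequence. The 22 differing bases are in capitals, and both are given 5′ to 3′ on GRCm38.
Sar1a, chr10:61685066-61685185, plus strand: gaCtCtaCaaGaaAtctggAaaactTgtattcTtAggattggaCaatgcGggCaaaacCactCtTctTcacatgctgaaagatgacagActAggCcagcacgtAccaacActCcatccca
Sar1b, chr11:51779689-51779808, plus strand: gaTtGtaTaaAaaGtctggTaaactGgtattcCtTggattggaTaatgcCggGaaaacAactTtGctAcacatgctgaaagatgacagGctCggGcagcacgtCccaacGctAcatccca

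Neither paralogue passed the test. Sar1a stood at 138, 157, 163 and 127 CPM in controls and at 157, 166, 161 and 163 CPM in the overexpression libraries, and the groups overlapped. Its log2 difference was 0.14 (SE 0.11, 95% interval -0.094 to 0.38, edgeR quasi-likelihood adjusted p = 0.268), and only limma-voom with quality weights called it (0.18, adjusted p = 0.0332). Sar1b stood at 107, 89.5, 102 and 75.2 CPM in controls and at 78.7, 74.6, 76.6 and 75.4 CPM in the overexpression libraries. Control library 4 lay among the overexpression libraries and the other 3 controls were above them. The log2 difference was -0.29 (SE 0.12, 95% interval -0.55 to -0.028, edgeR quasi-likelihood adjusted p = 0.0504). Its call and direction depended on the processing: it was called lower in 7 of 19 alternatives, among them without control library 4 (-0.38, edgeR adjusted p = 0.00638), without control library 3 (-0.27, edgeR adjusted p = 0.0155) and with the GC trend removed (-0.69, edgeR adjusted p = 5.64e-05). With the length trend removed it was 0.35, in the other direction (edgeR adjusted p = 0.0584). The per-kilobase ratio of Sar1a to Sar1b within a library was 0.433, 0.589, 0.538 and 0.568 in controls and 0.669, 0.744, 0.704 and 0.725 in overexpression libraries. These did not overlap (0.532 ± 0.0693 against 0.711 ± 0.0321, SD, n = 4 each; not tested). With the length trend removed the groups overlapped and the direction turned, at 0.646 ± 0.101 in controls and 0.584 ± 0.0230 with overexpression (SD, n = 4 each).

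**Figure D3:**
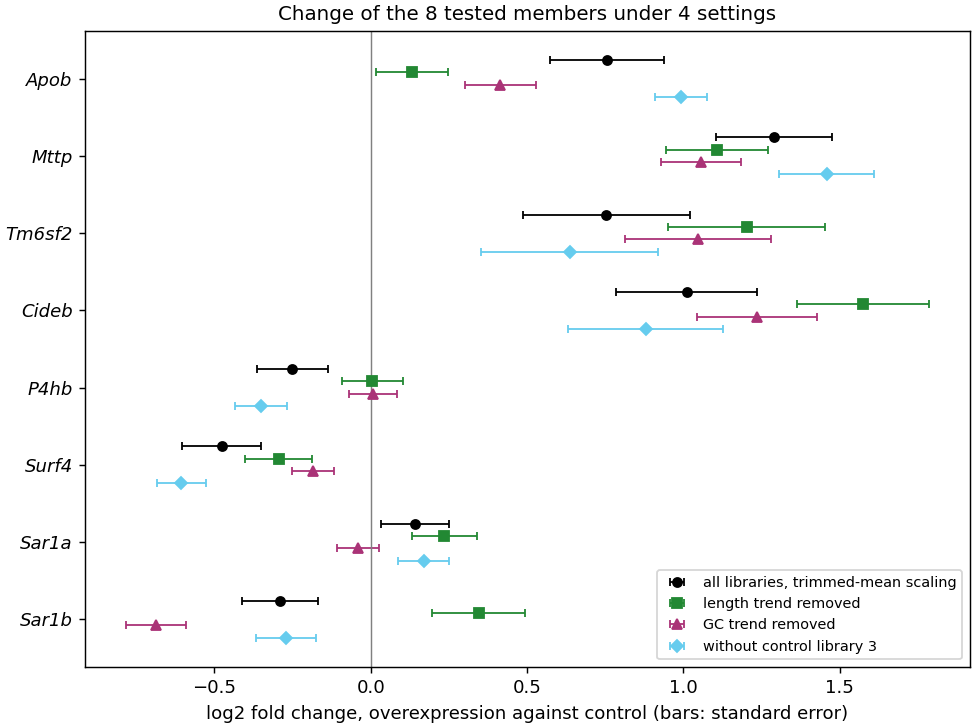
Log2 fold change with standard error of the 8 tested genes in the fit of all libraries, with the length trend removed, with the GC trend removed, and without control library 3. Mttp and Cideb lie above 0 and Surf4 below 0 under all 4 settings, while P4hb, Sar1a and Sar1b change sign under at least 1 of them.

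Creb3l3 lies at chr10:81084324-81098874 on the minus strand. It had 5, 4, 1 and 4 counts in controls and 12, 4, 0 and 7 counts in overexpression libraries, below the filter. The groups overlapped, and the ratio of the summed counts after scaling was 1.77 (exact 95% interval 0.873 to 3.72, counting error only), so a difference was not detectable at this depth. Fitted without the filter, the log2 difference was 0.78 (SE 0.72, edgeR adjusted p = 0.397).

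Per kilobase of exon the 9 genes spanned several orders of magnitude. P4hb was highest, at 448 ± 55.1 in controls and 377 ± 22.4 CPM per kilobase in overexpression libraries (SD, n = 4 each), above 99% of tested genes. In controls Surf4 (106 ± 16.9) and Sar1b (74.4 ± 11.2) followed and overlapped, and Sar1a (39.1 ± 4.51) and Apob (10.4 ± 3.49) came next. The lowest were Cideb (0.916 ± 0.176), Tm6sf2 (0.900 ± 0.274) and Mttp (0.857 ± 0.254), of which each overlapped the next in order, and Creb3l3 (0.0851). In overexpression libraries Surf4 was at 76.0 ± 4.36, Sar1b at 60.8 ± 1.42, Sar1a at 43.2 ± 0.966 and Apob at 17.5 ± 1.08 CPM per kilobase. Mttp, at 2.12 ± 0.0635, stood above Cideb (1.83 ± 0.165) and Tm6sf2 (1.51 ± 0.312), and the last pair overlapped. Among tested genes Apob lay at the percentile 57.9 in controls and 73.7 in overexpression libraries, and Mttp at 11.4 and 18.4. The place of Mttp depends on the length used, since with its longest transcript alone it was first of the low 3 in both groups, at 1.34 and 3.31 CPM per kilobase. That of Cideb is uncertain too, since 1136 of its 1488 exonic bases are also exonic in Nop9 and the strand setting of the counting is not known.

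**Figure D4:**
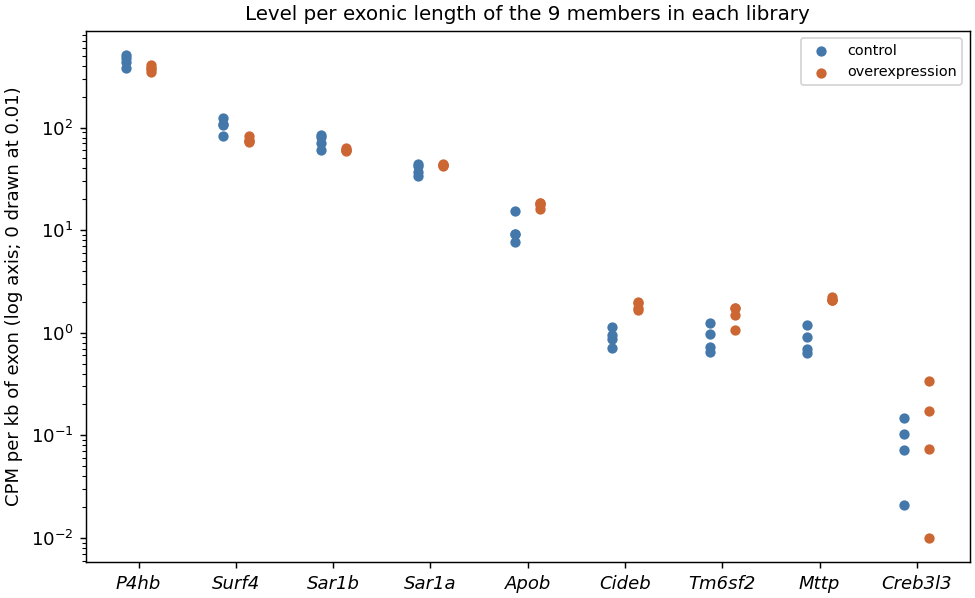
Level of each gene in CPM per kilobase of exon on a log10 axis, 1 point per library, with a level of 0 drawn at 0.01. P4hb is the highest in both groups and Creb3l3 the lowest. By mean, Mttp is the last of Cideb, Tm6sf2 and Mttp in controls, where the 3 overlap, and the first with overexpression. By the length of its longest transcript alone (not drawn), Mttp is the first of these in both groups.

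Around the particle's exit from the ER, the listed genes moved in both directions. Of 20 tested genes of the COPII coat and ER exit sites, 7 were higher and 2 lower (median log2 fold change 0.19), but with the length trend removed 5 were higher and 6 lower (median -0.06), and without control library 3 there were 10 and 5. Sec31b, an outer coat subunit, rose from 1.58 ± 0.399 to 5.06 ± 0.435 CPM (log2 fold change 1.69). Sec13, its partner in the coat, fell from 181 ± 39.1 to 90.5 ± 7.98 CPM (-0.996), and Sec16b, an ER exit site scaffold, fell from 26.8 ± 2.74 to 13.7 ± 1.85 CPM (-0.97, SD, n = 4 each). Mia2, which encodes a large-cargo receptor and was chosen after its value was seen, was higher by 0.68, or by 0.17 with the length trend removed. Of 22 genes of cargo receptors and vesicle fusion, 4 were higher and 9 lower (5 and 8 with the length trend removed, 6 and 10 without control library 3). In that list Tmed9, a p24 cargo receptor, changed by -0.92, Ykt6, a SNARE, by -0.64, and Gosr1, a Golgi SNARE, by 0.71.

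**Figure D5:**
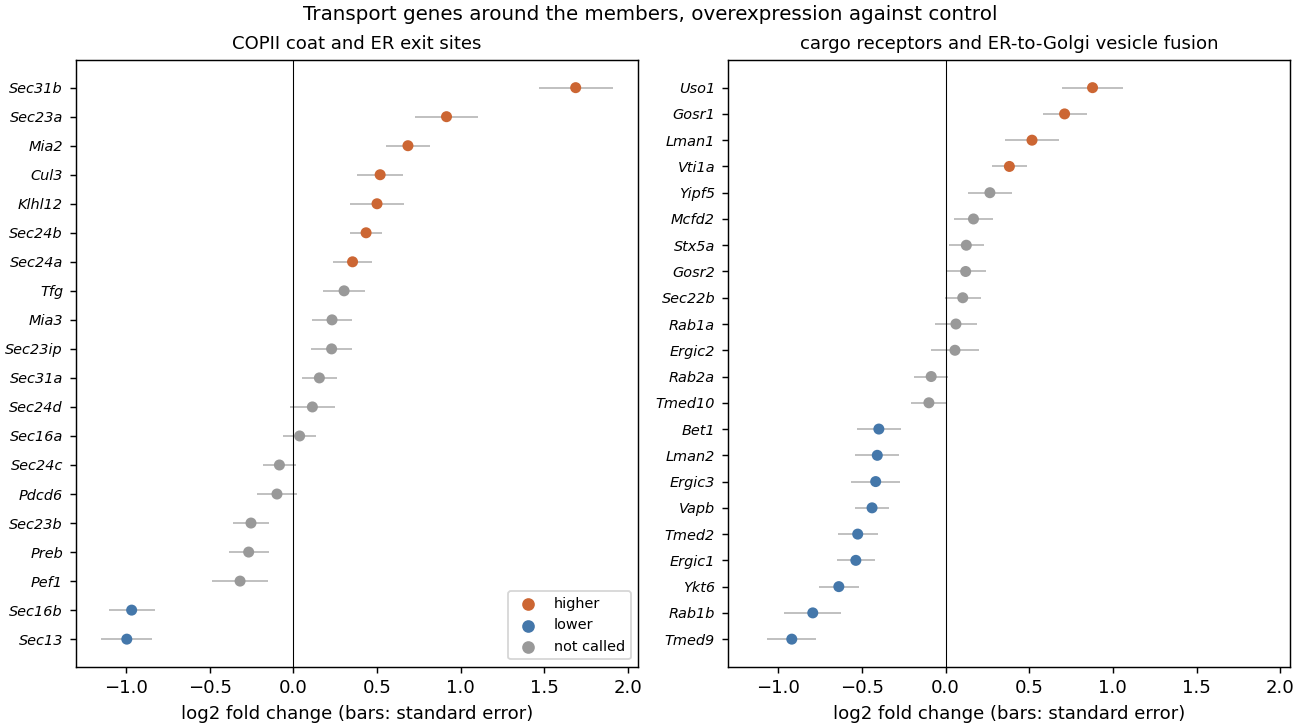
Log2 fold change with standard error of the listed COPII and ER exit site genes (left) and cargo receptor and vesicle fusion genes (right); orange points were called higher, blue points lower, and grey points were not called. Sec31b is the highest of the COPII genes at 1.69 and Sec13 the lowest at -0.996.

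Genes that act on apolipoprotein B before export were also mixed. In the list for editing and translation of its mRNA, 1 of 4 tested genes was higher and none was lower. Without control library 3 there were 2 higher, and with the length trend removed 0 higher and 1 lower. The gene added in the former and called lower in the latter is Syncrip, an RNA-binding protein of the editing complex, at 0.42 (edgeR adjusted p = 9.64e-04) and -0.29 (edgeR adjusted p = 0.0349), named after its values were seen. The gene called higher with all libraries, Hdlbp, encodes the RNA-binding protein vigilin, and stood at 548 ± 170 and 795 ± 14.8 CPM (SD, n = 4 each; log2 fold change 0.54, edgeR adjusted p = 0.0139). Its call was lost with the length trend removed (0.030, edgeR adjusted p = 0.831), without control library 1 (edgeR adjusted p = 0.0528) and without control library 2 (edgeR adjusted p = 0.0530). A1cf, the cofactor of apolipoprotein B editing, was below the filter with 47 counts in controls and 6 in overexpression libraries, a 7.27-fold lower level (exact 95% interval 3.10 to 20.8, counting error only; chosen after its value was seen). Of 20 genes of folding, sorting and degradation, 7 were higher and 7 lower. Pdia4, an ER isomerase, changed by 0.68, and Nploc4, a cofactor of the retrotranslocation ATPase, by -0.46. Of 12 tested disulphide isomerase genes and hydroxylase partners of P4hb, 4 were higher and 3 lower. There were 5 and 4 with the length trend removed, and 7 and 3 without control library 3. Erp29, at -0.97, and Txndc5, at -0.69, encode ER proteins of the thioredoxin-fold family.

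In the list for lipid supply and lipidation, 20 of 30 genes were tested. Of these, 3 were higher and 9 lower (median -0.24), beside 32.3% and 32.1% of all tested genes. With the length trend removed 2 were higher and 8 lower (median -0.055). Without control library 3 there were 3 and 13 (median -0.31). Ces3a, an ER carboxylesterase, had 3 counts in controls and 164 in overexpression libraries, a ratio of 58.9 (exact 95% interval 19.8 to 289, counting error only). Hsd17b13, a lipid droplet enzyme, fell from 4.79 ± 0.544 to 1.09 ± 0.444 CPM (log2 fold change -2.08, SD, n = 4 each). Arf1, a small GTPase of Golgi and lipid droplet traffic, changed by -0.78, or by -0.36 with the length trend removed. Pla2g12b and Pnpla3 had no counts. In the CIDE family, Cidea had 1 count in controls and 0 in overexpression libraries, and Cidec did not pass (-0.81, edgeR adjusted p = 0.0564), though it was called lower without control library 3 (-0.90, edgeR adjusted p = 0.0398) and without overexpression library 4 (-0.998, edgeR adjusted p = 0.0473).

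Among 18 tested regulators of Mttp and Apob transcription, 4 were higher and 3 lower. With the length trend removed there were 5 and 5, and without control library 3 there were 5 and 8. Nr5a2 (LRH-1), a nuclear receptor of bile acid and lipid genes, rose from 3.58 ± 0.723 to 16.3 ± 3.14 CPM (log2 fold change 2.17, SD, n = 4 each). Prox1, a corepressor, changed by 0.67, and Cebpb, a C/EBP factor, by -0.88, the latter losing its call with the length trend removed (-0.29, edgeR adjusted p = 0.0823). Hnf4a, a main activator of both genes, stood at 348 ± 23.7 and 310 ± 4.51 CPM (SD, n = 4 each) and was not called (edgeR adjusted p = 0.150). Foxa1 had 42 counts in controls and 0 in overexpression libraries. That is 12.99-fold lower when the overexpression group as a whole is given the 3 counts that a count of 0 allows. The exact 95% interval of its ratio reached from 0 to 0.099 (counting error only). Hnf4a and Foxa1 were chosen after their values were seen.

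Of 8 tested genes of the CREB3 family and its proteases, 2 were higher and 2 lower (2 and 4 with the length trend removed, 4 and 3 without control library 3). Creb3l1 rose from 47 to 419 counts, or from 0.840 ± 0.381 to 7.59 ± 1.18 CPM (log2 fold change 3.22), and Creb3l2 from 49.9 ± 1.06 to 85.2 ± 1.31 CPM (0.77, SD, n = 4 each). Creb3 changed by -1.01 and Atf6b by -0.67, and these 4 kept their calls in all 19 alternatives. Creb3l4 was below the filter. Atf6 (0.36, edgeR adjusted p = 0.067) and the processing genes Mbtps1 (0.13), Mbtps2 (0.33) and Scap (-0.24) were not called. Of 6 tested targets known for CREB3L3, 3 were higher and 1 lower, the same counts as with the length trend removed. Without control library 3 there were 2 and 3. Crp, an acute-phase gene, rose from 6.54 ± 0.751 to 13.7 ± 0.426 CPM (log2 fold change 1.07, SD, n = 4 each), and Fads1, a fatty acid desaturase, changed by -0.55. Apoa5 had 14 and 196 counts and is uncertain, since Gm47544 is annotated within it on the opposite strand.

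The genes whose log2 CPM followed Apob most closely over the 8 libraries were Usp24, Hdx and Mdn1, with Pearson r of 0.997, 0.996 and 0.996. Their exonic lengths were 12350, 9534 and 21836 bases, against a median of 4463 over the tested genes. For Mttp they were Senp7, Ppp4r3a and Mroh3, with r of 0.997, 0.996 and 0.996, and lengths of 13966, 13162 and 3230 bases. Such likeness was common, since 846 genes exceeded an r of 0.95 with Apob and 1495 with Mttp among 10945 compared. All of these genes share the same 8 libraries in 2 groups.

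In the promoters, 8 of the 9 genes matched the RefSeq table and Tm6sf2 did not. Both strands were searched for 8 motifs. The unfolded protein response element was TGACGTGG and the cyclic AMP response element TGACGTCA, and the core searched as TGACG lies within both. The HNF4-type site was CAAAGTCCA, the nuclear receptor site AGGTCA, the HNF1 site GTTAAT, the CCAAT box was searched by its letters and the TATA box as TATAAA. The windows of P4hb, Sar1a and Creb3l3 also held TGACG, with 3 matches in Sar1a. Those of P4hb, Sar1b and Creb3l3 held CCAAT, which 37.4% of all windows hold. Cideb held TATAAA (13.6% of all windows) and Creb3l3 held AGGTCA (16.3%). The other window of Creb3l3, at the upstream end of the gene, held no match, nor did that of Surf4. Neither TGACGTGG nor the whole cyclic AMP response element was found in these windows, which says nothing of the factors that bind them elsewhere.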

How the data were processed

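RNA-seq libraries of AML-12 cells, 4 control and 4 overexpression, were made with an NEBNext Ultra kit from Trizol-extracted RNA, per the labels' protocols. The deposited table holds raw, unnormalized read counts by gene symbol, made with FastQC, STAR and HTSeq on mm10 according to the submitters' processing notes. Tool versions, annotation and strand setting are not stated in the labels or notes. Groups come from the sample titles. The genes and lists were chosen with earlier results of these data known.

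Counts were fitted in R 4.3.3 with edgeR 4.0.16 (filterByExpr, minimum count 10; trimmed-mean scaling; two-sided quasi-likelihood test; Benjamini-Hochberg over 11520 genes; called at 0.05). Standard errors are |log2 fold change| over the square root of F. CPM uses scaled library sizes. Levels per kilobase use exonic lengths of GENCODE M21 on GRCm38, the assembly of mm10, where 21926 symbols matched. Context genes named by rule were up to 3 called genes of each list with the smallest p and at least 1 CPM, and all CIDE and CREB3 family members. A gene that the rule names is not reported here. Genes most like Apob and Mttp are by Pearson r of log2(CPM + 0.5). Library pairs of a group differed beyond counting noise (chi-square per gene 2.44 to 106). The common biological coefficient of variation was 0.15. Alternatives were other scalings and filters, DESeq2 1.42.0, limma 3.58.1 (voom with quality weights), a replicate block, removal of trends on length or GC content (lowess, span 0.3), and each library left out. The longest-transcript lengths, the length-corrected ratios and the marker sums without 1 gene were added after seeing the data. Intervals and floors cover counting error only.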

Additional observations from a re-analysis of the deposited data

Results flagged for a closer look

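In groups of 4 libraries, 94 groups of the reported genes were examined for a single library whose gap to its nearest neighbour exceeded Dixon's critical share of the group's range, and 4 were found, where chance flags about 1 group in 20. Among controls, Hdlbp in library 3 was at 800.4 CPM and Atf6 in library 3 at 82.6 CPM. Among overexpression libraries, Arf1 in library 2 was at 451 CPM and Creb3l1 in library 1 at 5.83 CPM. None was in the 9 VLDL genes.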

How the results depend on the processing

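The counts of VLDL genes higher in overexpression libraries (3 to 5) kept within 1.5 times of the reported 4 under every alternative run. The count lower, 1 as reported, was 2 with RLE factors, without a count filter, with DESeq2 and with the GC trend removed, 3 with voom, where 8 were changed in all, and ranged from 1 to 3 when libraries were left out, with 3 without control library 3 and 2 without control library 4. Directions reversed with the length trend removed for P4hb (0.0051), Sar1b (0.35), Atf6 (-0.023), Mbtps1 (-0.38) and Mbtps2 (-0.11), and with the GC trend removed for P4hb (0.0089), Sar1a (-0.040), Mbtps2 (-0.060) and Scap (0.061). The cause was not tested. Library totals in place of trimmed-mean factors moved the median log2 fold change of all genes to 0.128 and the share of calls that were higher from 50.2% to 58.4%.

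Replicate numbers did not pair the libraries (correlations of deviations 0.029, -0.010, -0.089 and -0.16, and no library correlated best with its own number). With a replicate block 4 VLDL genes were higher and 1 lower, and 7129 genes changed in place of 7417. With block and length trend together, none was lower (0, with Surf4 at -0.29, edgeR adjusted p = 0.0639), and P4hb (0.0077), Sar1b (0.38), Atf6 (-0.014), Mbtps1 (-0.37) and Mbtps2 (-0.087) reversed. Depth limited Creb3l3, with 37 counts in all.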
